A study of Mus musculus with 35 samples.

Results

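The genes described here carry the leptin, insulin and ghrelin signals in the hypothalamus: the receptors Lepr, Insr, Igf1r and Ghsr, the insulin receptor substrate Irs2, the leptin signal transducer Stat3, the inhibitors Socs3 and Ptpn1, and the transcription factors Foxo1 and Foxo3. They were taken by gene name from a list of 10, and all 10 were found among the 49568 gene names of the count tables. All 10 also passed the filter on low counts, with a lowest count of 23 in any library, and stood among the 18063 genes tested.

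RNA was measured in the hypothalamus of 35 male mice of strain B6/J at Zeitgeber time 16, that is, 16 h after lights-on, with 1 polyA library per mouse. Wild type mice, here called controls, had food at will (n = 10) or none for the 16 h up to that time (n = 10). The other groups were mice labelled PER2-S662D, fed (n = 5) or fasted (n = 5), and mice labelled Per2 knockout, all fasted (n = 5). S662D stands for an aspartate in place of a serine of the clock protein PER2. The labels give neither how the alleles were made nor the ages of the mice, and there was no fed knockout group.

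Leptin, made by fat cells, binds the receptor LEPR, whose associated kinase activates STAT3. STAT3 then induces Socs3, which shuts the receptor down, and the phosphatase PTPN1 removes phosphate from the same kinase and from the insulin receptor. Insulin and IGF1 act through INSR, IGF1R and the adaptor IRS2 on the PI3K and AKT kinases, which keep FOXO1 and FOXO3 out of the nucleus, and ghrelin, made by the stomach during fasting, acts on GHSR of arcuate neurons. In fasting, leptin and insulin in the blood are low and ghrelin is high.

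In fasted control mice, Socs3 was 28.6% lower than in fed ones, while Foxo1 was 26.5% higher and Ptpn1 12.8% higher. The other 7 genes did not pass the test, which 3.88% of all genes tested passed. In S662D mice, with 5 libraries per state instead of 10, 0 of the 10 genes passed on fasting, beside 2.64% of all genes tested. Socs3, Ptpn1 and Foxo1 had estimates of the same sign as in controls. A difference between the genotypes in the fasting response was called for 0 of 10, beside 0% of all genes tested. Fed S662D mice had 16.9% more Foxo3 RNA than fed controls. That difference lay in 3 of the 5 libraries, which share a feature of their library numbers.

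Total counts per library were 17959586 to 37027342. All 12 hypothalamus markers were detected in every library, with a summed level of 533 to 777 CPM (counts scaled to a common library size after TMM, a method that evens out composition between libraries). Markers of pituitary summed to 1.61 to 6.66 CPM. Markers of choroid plexus, a tissue of the brain ventricles, ranged from 47.4 to 1621 CPM, and 10 libraries of all 5 groups lay above 2 times the median. The 5 libraries labelled Per2 knockout held no less Per2 (30.3 ± 2.00 CPM, SD, n = 5) than fasted controls (29.0 ± 2.45, SD, n = 10), and counts per gene need not show the deletion of single exons, so they do not check the label. Per2 was lower in S662D libraries (18.7 ± 1.98 CPM fed and 19.9 ± 2.38 CPM fasted, SD, n = 5 each), with no overlap with the controls. The library numbers in the file headers form sets, here called number sets. Control replicates 1 to 5 and 6 to 10 have separate number ranges. The numbers of S662D replicates 2, 3 and 4, fed and fasted, carry an additional final digit. Neither what separates the control ranges nor what the digit means is stated. For the S662D and labelled knockout groups, the genotype and the range of library numbers cannot be told apart.

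Socs3 and Foxo1 had the largest log2 changes of the 10 genes on fasting in controls, and Irs2 differed most between the number sets. The stretches before the RefSeq starts of Socs3, Foxo1 and Irs2 are therefore shown. They come from RefSeq (GRCm38.p6, the build called mm10 in the count tables) and run 5′ to 3′ on the gene's strand from 250 bases before the RefSeq start, ending where an exon of the count tables begins. The Irs2 stretch meets no exon and is printed whole. That of Socs3 lies between exons of the gene model in the count tables, which begins farther upstream than the RefSeq start. Windows were matched by symbol for 9 of the 10 genes. Capitals mark matches, on either strand, to the STAT motif TTCNNNGAA, the E-box CACGTG, which clock proteins bind, and the CCAAT box CCAAT. The FOXO motif GTAAACA, the glucocorticoid receptor half-site AGAACA, the cyclic AMP element TGACGTCA and the GC box GGGCGG, which is left in lower case and stands in 32.7% of windows, were searched as well.
Socs3, chr11:117969452-117969616, minus strand: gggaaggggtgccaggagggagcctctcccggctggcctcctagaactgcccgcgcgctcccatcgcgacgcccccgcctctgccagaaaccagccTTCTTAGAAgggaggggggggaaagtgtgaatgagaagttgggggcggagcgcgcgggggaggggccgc
Foxo1, chr3:52268087-52268335, plus strand: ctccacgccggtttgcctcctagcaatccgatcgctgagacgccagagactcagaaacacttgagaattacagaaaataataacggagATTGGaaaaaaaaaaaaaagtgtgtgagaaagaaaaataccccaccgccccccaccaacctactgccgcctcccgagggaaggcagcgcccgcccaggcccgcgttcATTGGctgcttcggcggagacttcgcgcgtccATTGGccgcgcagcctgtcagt
Irs2, chr8:11008930-11009179, minus strand: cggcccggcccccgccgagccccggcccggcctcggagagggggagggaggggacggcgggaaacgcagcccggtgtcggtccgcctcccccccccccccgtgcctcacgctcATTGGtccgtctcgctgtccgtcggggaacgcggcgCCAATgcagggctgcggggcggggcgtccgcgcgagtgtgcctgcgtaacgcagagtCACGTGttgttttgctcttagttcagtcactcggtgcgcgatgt

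The Socs3 stretch held the match TTCTTAGAA at 154 to 146 bases before the start, and windows of 250 bases with at least 1 STAT match made up 7.02% of 32851 RefSeq promoters. Among the 9 genes with a window, Socs3 alone had one. The Irs2 stretch held CACGTG at 44 to 39 bases before the start, a motif found in 6.02% of windows, and the CCAAT box on each strand once. The Foxo1 stretch held the CCAAT box 3 times, all on the other strand, and 33.8% of windows held it. No window of the 9 genes held GTAAACA (3.17% of all windows) or TGACGTCA (1.55%), and AGAACA stood only upstream of Stat3 (16.1%). No match overlapped another. The matches are letters in these windows, and binding was not measured.

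Per kilobase of exon, the only scale on which levels can be compared between genes, Irs2 stood highest in fed controls at 15.8 ± 1.00 CPM per kilobase (SD, n = 10). Foxo3 (8.10 ± 0.468), Ptpn1 (7.45 ± 0.413) and Stat3 (6.41 ± 0.224) followed, then Igf1r (3.88 ± 0.288), Insr (3.78 ± 0.332) and Foxo1 (2.12 ± 0.311). Ghsr (1.06 ± 0.141), Socs3 (0.922 ± 0.192) and Lepr (0.460 ± 0.0841) were the lowest, so the 2 receptors specific to leptin and ghrelin and the leptin-induced inhibitor had the fewest transcripts in this block of tissue. The libraries overlapped between the neighbours Foxo3 and Ptpn1, Igf1r and Insr, and Ghsr and Socs3, and at no other step of the order. In bulk tissue, fewer cells of a type and less RNA per cell cannot be told apart, and Lepr and Ghsr are known from small groups of neurons. The spread over libraries was widest for the low genes: the coefficient of variation in fed controls was 20.8% for Socs3 and 18.3% for Lepr against 3.49% for Stat3.

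**Figure D1:**
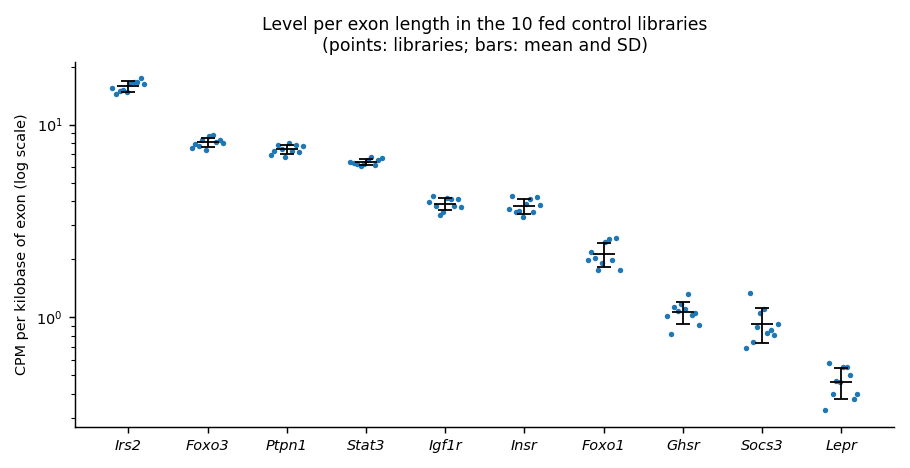
Level of each gene per kilobase of exon (vertical axis, log scale) in the 10 fed control libraries (points), with mean and SD. Irs2 stands highest at 15.8 CPM per kilobase and Lepr lowest at 0.460.

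Fasting in control mice changed 3 of the 10 genes, where 3.88% of all genes tested were called (701 of 18063, by the quasi-likelihood test of edgeR, with called meaning an adjusted p below 0.05 over all genes). Estimates were above 0 for 9 of the 10, with a median log2 fold change of 0.13 against 0.00 over all genes tested.

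Among the receptors, none passed. Lepr, the leptin receptor (chromosome 4, 101717404 to 101815352, plus strand, mm10), had 2.31, 3.25 and 4.08 CPM as the lowest, median and highest of the fed controls, and 3.33, 4.02 and 4.88 in the fasted controls. Every fasted library lay above the median of the fed ones, but the groups overlapped. The log2 fold change was 0.32 (SE 0.12, 95% interval 0.09 to 0.56, adjusted p = 0.124 in edgeR, after Benjamini and Hochberg), from 44 to 101 counts per library. Lepr is also known to be expressed in choroid plexus. The 2 fed controls with high choroid plexus markers had 3.51 and 4.08 CPM of Lepr against 2.31 to 3.89 in the other 8. In fasted controls, the 4 libraries high in these markers had 3.55 to 4.61 CPM, against 3.33 to 4.88 in the other 6. Without the 10 such libraries of all groups the log2 fold change was 0.36 (adjusted p = 0.295 in edgeR). Counts per gene do not separate the long, signalling form of the receptor from the short ones.

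Ghsr, the ghrelin receptor (chromosome 3, 27371351 to 27378010, plus strand), had 3.61, 4.74 and 5.87 CPM as the lowest, median and highest of fed controls and 3.91, 5.59 and 6.57 in fasted controls. The groups overlapped over most of their range. Its log2 fold change was 0.23 (interval 0.02 to 0.44, adjusted p = 0.299 in edgeR). Insr, the insulin receptor (chromosome 8, 3122061 to 3279617, minus strand), had 52.0 ± 4.57 CPM fed and 55.5 ± 4.32 CPM fasted (SD, n = 10 each), which is a difference of 0.10 on the log2 scale (interval −0.02 to 0.21). Igf1r, the receptor of insulin-like growth factor 1 (chromosome 7, 67952827 to 68233668, plus strand), had 65.2 ± 4.83 and 69.5 ± 6.94 CPM, a log2 fold change of 0.09 (interval −0.05 to 0.23). For both, the intervals leave room for a rise of about the size seen for Ptpn1.

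Irs2, the adaptor between the insulin receptor and PI3K (chromosome 8, 10984681 to 11008458, minus strand), had 90.9, 100.5 and 109.8 CPM as the lowest, median and highest of fed controls and 92.9, 118 and 129 CPM in fasted ones. The groups overlapped, and the log2 fold change was 0.19 (SE 0.08, adjusted p = 0.235 in edgeR). The 2 control sets moved differently. In controls 1 to 5, fed libraries had 97.9, 90.9, 94.2, 95.8 and 93.0 CPM and fasted ones 119, 126, 126, 129 and 118 CPM, with no overlap. In controls 6 to 10, fed libraries had 104, 106, 105, 109.8 and 103 CPM and fasted ones 110.4, 92.9, 103, 98.1 and 119 CPM, which overlapped. The log2 fold change was 0.39 with controls 1 to 5 alone (adjusted p = 0.0392 in edgeR) and −0.01 with controls 6 to 10 alone (adjusted p = 0.977).

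Stat3, the transcription factor downstream of the leptin receptor (chromosome 11, 100885098 to 100939540, minus strand), had 61.0 ± 2.13 CPM in fed and 62.6 ± 3.54 CPM in fasted controls (SD, n = 10 each). The interval of its log2 fold change, −0.03 to 0.11, was the narrowest of the 10 genes. Its transcript level says nothing about its phosphorylation, which was not measured.

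Socs3, the inhibitor that STAT3 induces (chromosome 11, 117966079 to 117970047, minus strand), had 1.99, 2.52 and 3.87 CPM as the lowest, median and highest of fed controls, and 1.28, 1.80 and 2.69 CPM in fasted controls. One fasted library, replicate 1 at 2.69 CPM, lay above the fed median, and the groups overlapped. Socs3 fell by 0.49 on the log2 scale (SE 0.13, adjusted p = 0.0229 in edgeR), with 23 to 73 counts per library behind these values. The call was lost in 6 of the 20 refits without 1 control library: without fed replicates 2 or 6 or fasted replicates 3, 4, 5 or 10 the adjusted p was 0.0505 to 0.0645. With controls 1 to 5 alone the log2 fold change was −0.66 (adjusted p = 0.0366 in edgeR), with controls 6 to 10 alone it was −0.33 (adjusted p = 0.281), and without the libraries high in choroid plexus markers it was −0.40 (adjusted p = 0.277).

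Ptpn1, the phosphatase that acts on the leptin receptor's kinase and on the insulin receptor (chromosome 2, 167932057 to 167979385, plus strand), had 37.7, 40.8 and 44.6 CPM as the lowest, median and highest of fed controls, and 40.0, 47.2 and 52.6 CPM in fasted controls. All fasted libraries but 1 lay above the fed median, and the groups overlapped. Ptpn1 rose by 0.17 on the log2 scale (SE 0.04, adjusted p = 0.00897 in edgeR). The estimate was 0.16 in controls 1 to 5 and 0.18 in controls 6 to 10, each without a call on its own (adjusted p = 0.0881 and 0.105), and it kept its call without the libraries high in choroid plexus markers.

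Foxo1, which insulin signalling inactivates (chromosome 3, 52268336 to 52353221, plus strand), had 15.2, 17.4 and 22.4 CPM as the lowest, median and highest of fed controls, and 18.7, 23.2 and 28.1 CPM in fasted controls. All 10 fasted libraries lay above the fed median, and the groups overlapped. Foxo1 rose by 0.34 on the log2 scale (SE 0.08, adjusted p = 0.00313 in edgeR). In controls 1 to 5 the fed libraries had 15.2 to 18.9 CPM and the fasted ones 23.2 to 28.1 CPM, with no overlap and a log2 fold change of 0.52 (adjusted p = 0.000184). In controls 6 to 10 they had 15.2 to 22.4 and 18.7 to 26.1 CPM, with a log2 fold change of 0.16 (adjusted p = 0.447), and without the libraries high in choroid plexus markers the log2 fold change was 0.28 (adjusted p = 0.124). Of Foxo1's exon bases, 7.78% overlap Gm20402 on the other strand, and the counting used no strand option. Irs2 (2.56%, with 9530052E02Rik) and Stat3 (0.756%, with Stat5a) also overlap genes on the other strand. Foxo3, the family member of Foxo1 (chromosome 10, 42181841 to 42276755, minus strand), had 61.3 ± 3.55 CPM fed and 64.4 ± 2.01 CPM fasted, a log2 fold change of 0.07 (interval −0.02 to 0.16).

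**Figure D2:**
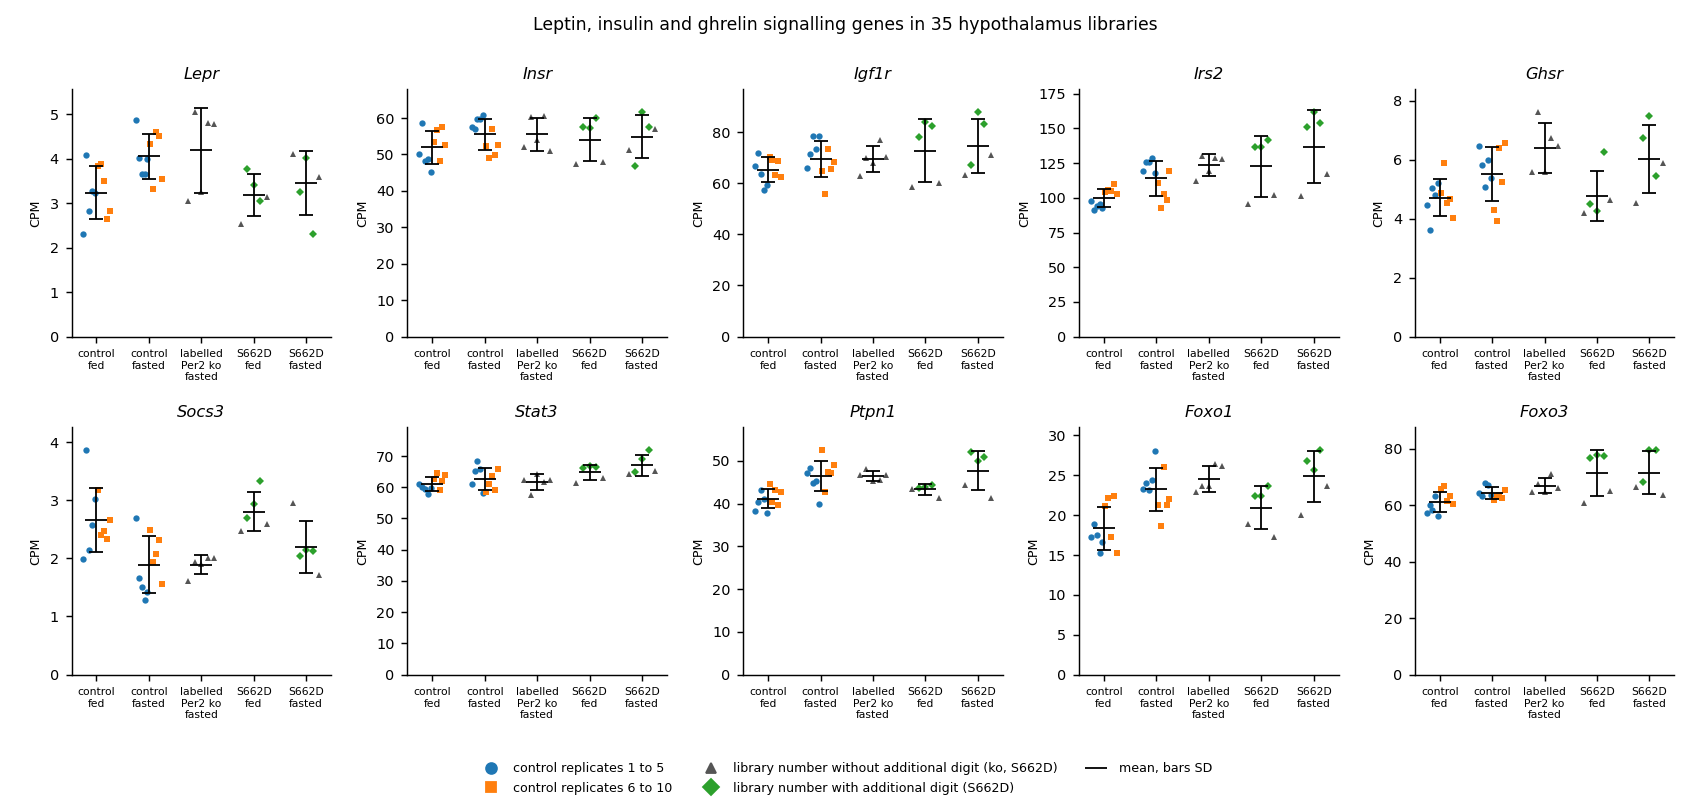
CPM of each gene (vertical axes from 0) in every library of the 5 groups, with group mean and SD. Colours and shapes give the number sets. Socs3 is lower and Foxo1 and Ptpn1 are higher in fasted than in fed controls with overlapping points, and Irs2 and Foxo3 split by library number within the S662D groups.

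Markers of other cells moved with fasting in controls as well, and their part in these results was not tested. Of the 9 microglia markers, 2 fell (Cx3cr1 and P2ry12), with summed levels of 289 to 331 CPM fed and 242 to 339 CPM fasted. Of the 8 endothelial markers, 2 fell (Cldn5 and Tek), with 217 to 249 CPM fed and 195 to 227 CPM fasted. Of the 8 astrocyte markers 3 rose (Gjb6, Agt and Aldh1l1) and 1 fell (Aqp4), with overlapping sums of 2479 to 2825 and 2473 to 2927 CPM. Of the 8 genes listed as meningeal fibroblast markers, 2 rose (Col1a2 and Pdgfra). Pdgfra had the highest level of that list, at 53.4 CPM in fed controls. Of 8 listed tanycyte markers 1 rose (Dio2), and of 8 listed oligodendrocyte markers 1 rose (Mobp). In bulk tissue, a gene's place on a list does not fix which cells its RNA came from. Of the neuron markers 0 of 8 were called, and of the choroid plexus markers 0 of 10. No listed microglia, endothelial or astrocyte marker was at 0 in any library. Of the 7 tested arcuate neuron markers 2 rose and 0 fell, with a list median of 0.04 against 0.00 over all genes. The 2 were Agrp and Npy (0.61 and 0.39 on the log2 scale), the peptides of the arcuate hunger neurons that carry Ghsr and Lepr. In S662D mice 0 of the 7 were called on fasting.

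In S662D mice, 2.64% of all genes tested were called on fasting (476 of 18063), and 0 of the 10 genes described here. DESeq2 called 0 of the 10 as well, and 4 of the 10 had an unadjusted p under 0.05 in edgeR, as did 14.3% of all genes tested. Ghsr had 4.20, 4.51, 4.25, 6.27 and 4.62 CPM in fed and 4.54, 6.73, 7.49, 5.43 and 5.90 CPM in fasted S662D mice, and the groups overlapped through fed replicate 4 and fasted replicate 1. Their log2 ratio was 0.32 (SE 0.14, adjusted p = 0.252 in edgeR). Socs3 had 2.48, 2.70, 2.93, 3.33 and 2.59 CPM fed and 2.95, 2.05, 2.14, 2.13 and 1.72 CPM fasted. Fasted replicate 1 alone lay among the fed values, and the log2 fold change was −0.36 (SE 0.18, adjusted p = 0.347 in edgeR). Ptpn1 had 43.5, 43.6, 43.8, 44.4 and 41.3 CPM fed and 44.4, 52.1, 50.0, 51.0 and 41.3 CPM fasted. The 3 fasted libraries with the additional digit were high and the other 2 were at the fed level, with a log2 fold change of 0.14 over all (adjusted p = 0.246). Foxo1 had 18.9, 22.4, 22.4, 23.6 and 17.3 CPM fed and 20.0, 26.8, 25.7, 28.2 and 23.7 CPM fasted, a log2 fold change of 0.24 (adjusted p = 0.243 in edgeR).

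The fasting responses of S662D and control mice were compared in the same fit. Of all genes tested, 0% were called (0 of 18063, lowest adjusted p 0.762 in edgeR, with 6.37% at an unadjusted p under 0.05), and of the 10 genes 0 had an unadjusted p under 0.05 and 0 were called by DESeq2. The difference in log2 fold change, S662D minus control, was 0.13 for Socs3 (interval −0.32 to 0.58), −0.03 for Ptpn1 (−0.18 to 0.12) and −0.10 for Foxo1 (−0.36 to 0.16). For Lepr it was −0.21 (interval −0.61 to 0.19). The intervals of all 4 include the loss of the whole control response.

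**Figure D3:**
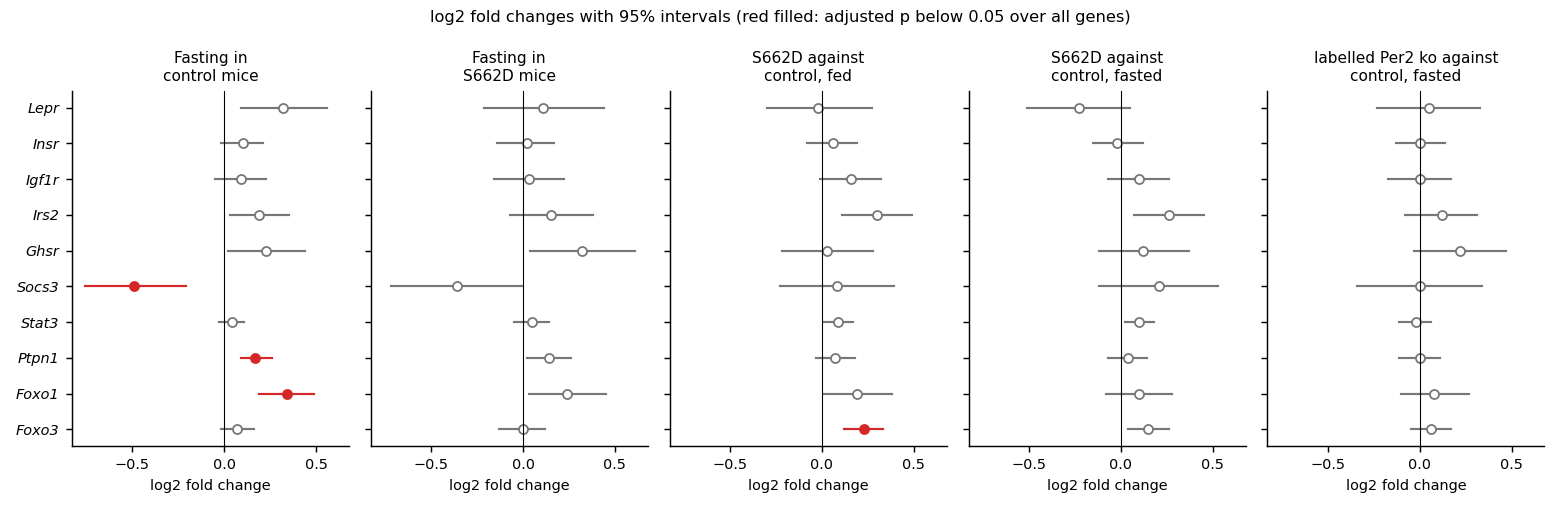
log2 fold change (horizontal axis, points) and 95% interval (lines) of the 10 genes in 5 comparisons, red and filled where the adjusted p over all genes was below 0.05. On fasting in controls Socs3 is lower and Ptpn1 and Foxo1 are higher, Foxo3 is higher in fed S662D mice, and 0 genes are called in the other comparisons.

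Between genotypes, fed S662D mice differed from fed controls in 4.69% of all genes tested (847 of 18063) and in 1 of the 10 genes. Foxo3 had 56.1, 61.0 and 66.9 CPM as the lowest, median and highest of fed controls, and 60.7, 76.7, 78.0, 77.5 and 65.0 CPM in the 5 fed S662D libraries. The 3 libraries with the additional digit lay above every control, and the 2 without it lay within the control range. Foxo3 was higher by 0.23 on the log2 scale (SE 0.05, adjusted p = 0.0104 in edgeR), by 0.34 with only the S662D libraries that carry the digit (adjusted p = 3.96e-06) and by 0.03 with only those that do not (adjusted p = 1.00). The call was lost without fed S662D replicate 2, 3 or 4 (adjusted p = 0.0733 to 0.0961 in edgeR) with controls 6 to 10 alone (0.17, adjusted p = 0.275) and without the libraries high in choroid plexus markers (0.23, adjusted p = 0.0714).

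Irs2 followed the same split. Fed S662D libraries had 95.9, 137, 137, 142 and 102 CPM, and fasted ones 101, 151, 162, 154 and 117 CPM. In both states the 3 libraries with the digit lay above all control libraries of that state, whose highest values were 109.8 and 129 CPM, and the others lay within the control range. Over all libraries, the log2 fold change against controls was 0.30 fed (SE 0.10, adjusted p = 0.0598 in edgeR) and 0.26 fasted (SE 0.09, adjusted p = 0.104), neither of which passed. DESeq2 called both (adjusted p = 0.0205 and 0.0499). Without S662D replicate 1 or replicate 5, both without the digit, it passed in both states.

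In the fasted state, S662D mice differed from controls in 5.57% of all genes tested (1007 of 18063) and in 0 of the 10, of which 3 had an unadjusted p under 0.05 in edgeR (20.8% of all genes did) and 1, Irs2, was called by DESeq2. Stat3 had 64.2, 64.9, 69.1, 72.0 and 65.1 CPM in fasted S662D mice against 58.1, 62.3 and 68.4 CPM as the lowest, median and highest of fasted controls. All 5 lay above the control median, and the log2 fold change was 0.10 (SE 0.04, adjusted p = 0.142 in edgeR). Foxo3 had 66.5, 68.2, 79.6, 79.7 and 63.8 CPM against 61.8, 63.7 and 68.1 CPM, a log2 fold change of 0.15 (adjusted p = 0.0796 in edgeR). Of the 8 endothelial markers, 5 were higher in fasted S662D mice (Cldn5, Flt1, Cdh5, Pecam1 and Esam), with summed levels of 202 to 273 CPM against 195 to 227 CPM, and their part in these values was not tested.

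The fasted libraries labelled Per2 knockout differed from fasted controls in 0.0277% of all genes tested (5 of 18063) and in 0 of the 10 genes, of which 0 had an unadjusted p under 0.05 in edgeR (6.07% of all genes did) and 0 were called by DESeq2. The estimate farthest from 0 was that of Ghsr, with 5.58, 7.62, 5.59, 6.74 and 6.46 CPM against 3.91, 5.59 and 6.57 CPM as the lowest, median and highest of fasted controls. The groups overlapped, and the log2 fold change was 0.22 (interval −0.03 to 0.47, adjusted p = 0.842 in edgeR). Socs3 had 1.61, 1.94, 1.90, 2.01 and 2.01 CPM against 1.89 ± 0.485 CPM (SD, n = 10) in fasted controls, with an interval of −0.34 to 0.34 for the log2 difference. Against fasted S662D mice, 7.34% of all genes tested were called (1325 of 18063) and 0 of the 10 genes, with 0 also by DESeq2 and 1 at an unadjusted p under 0.05 in edgeR, where 22.4% of all genes were. That gene was Stat3, with 62.4, 57.4, 64.4, 61.7 and 62.4 CPM, all below the S662D median, and the log2 difference was −0.12 (SE 0.05, adjusted p = 0.105 in edgeR).

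The number sets were then tested themselves, in a comparison added after the values had been seen. The fasting response differed between control replicates 6 to 10 and 1 to 5 in 13.6% of the genes tested (2562 of 18819) and in 3 of the 10 genes. The difference in log2 fold change was −0.40 for Irs2 (SE 0.07, adjusted p = 0.000786 in edgeR), −0.37 for Foxo1 (SE 0.12, adjusted p = 0.0345) and −0.28 for Insr (SE 0.09, adjusted p = 0.0331). Insr had a mean of 50.2 CPM fed and 58.9 CPM fasted in controls 1 to 5, and 53.7 and 52.1 CPM in controls 6 to 10. For Ptpn1 the difference was 0.01 (SE 0.07) and for Socs3 0.33 (SE 0.27, adjusted p = 0.448), neither called. The call for Irs2 held in all 20 refits without 1 library. Those for Insr and Foxo1 held in 12 of 20 each, and both were lost without fed replicates 4, 5, 7 or 9 or fasted replicates 5, 7 or 9, that for Insr also without fed replicate 3 and that for Foxo1 also without fed replicate 6 (adjusted p = 0.0557 to 0.0949 in edgeR).

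S662D libraries with the digit differed from those without it in 16.1% of the genes tested (3027 of 18819) and in 5 of the 10 genes, over fed and fasted together. The log2 difference was 0.51 for Irs2 (SE 0.05, adjusted p = 1.53e-09 in edgeR), 0.35 for Igf1r (SE 0.07, adjusted p = 0.000355), 0.32 for Foxo1 (SE 0.08, adjusted p = 0.00542), 0.27 for Foxo3 (SE 0.04, adjusted p = 2.34e-05) and 0.16 for Ptpn1 (SE 0.05, adjusted p = 0.0276). All 5 were higher with the digit. The call for Foxo1 was lost without fed replicate 5 or fasted replicate 1. That for Ptpn1 held in 8 of 15 alternatives. Its losses included the fits without fed replicates 1, 4 or 5, fasted replicates 2 or 5, or the libraries high in choroid plexus markers. In these fits for Foxo1 and Ptpn1 the adjusted p was 0.0516 to 0.423 in edgeR. Lepr (0.01) and Socs3 (0.05) had the estimates nearest 0, with standard errors of 0.16 and 0.18. Gene length moved with both sets: the median log2 difference went from 0.16 for genes under 2 kilobases of exon to −0.18 for genes over 10 kilobases between the control sets, and from −0.11 to 0.10 with the digit. The exons of Igf1r (16791 bases) and Insr (13746 bases) are in the longest class. Those of Irs2 (6323 bases), Foxo1, Foxo3 and Ptpn1 are in the class of 5 to 10 kilobases, with medians of −0.07 between the control sets and 0.05 with the digit. From the shortest to the longest class, the median went from −0.07 to 0.08 in fed S662D against control mice. On fasting in S662D mice it went from 0.06 to −0.07, and on fasting in controls from 0.00 to 0.01. The part of length in these differences was not tested.

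**Figure D4:**
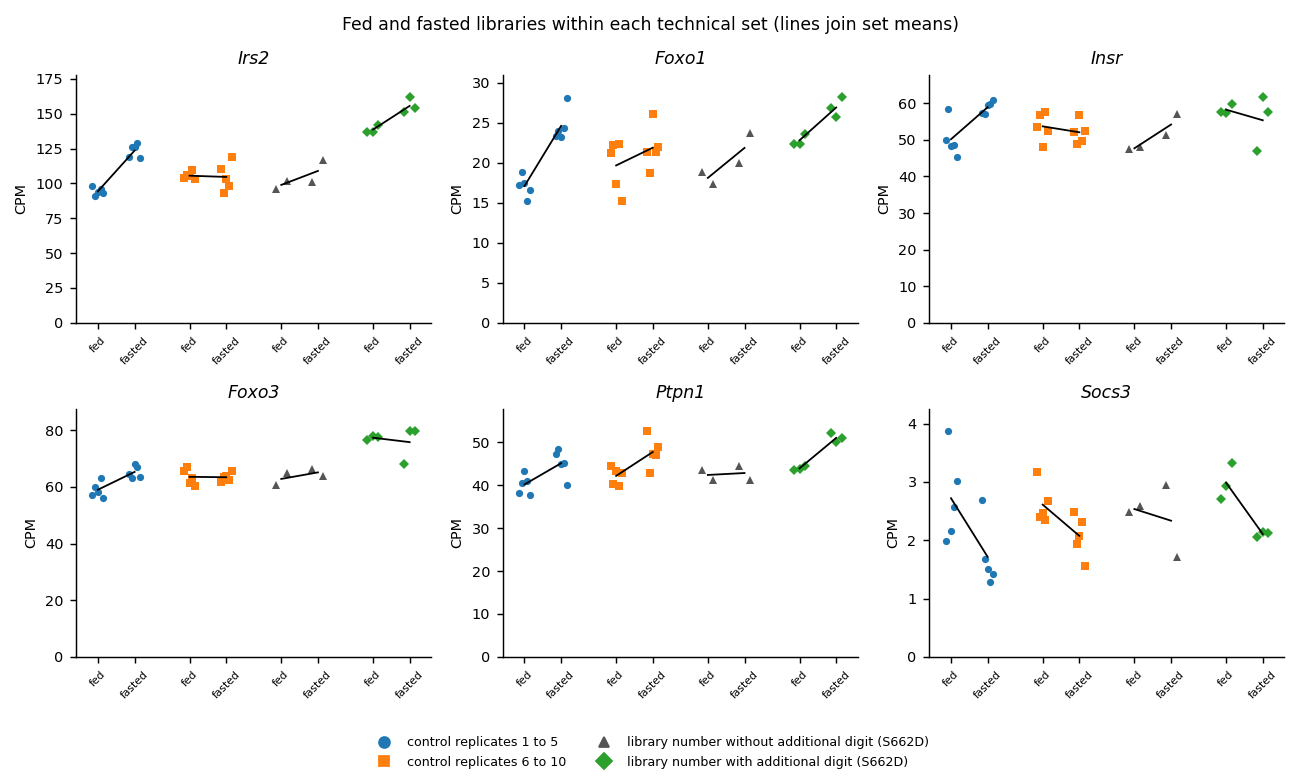
CPM (vertical axes from 0) of 6 genes in fed and fasted libraries within each number set, with lines between the set means. Irs2 rises from a mean of 94.3 to 124 CPM in control replicates 1 to 5 and stays at 105 in replicates 6 to 10, while Ptpn1 rises in both.

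Of the other genes of these pathways, 14 of 94 tested (14.9%) were called on fasting in controls, beside 3.88% of all genes, and 12 of 94 (12.8%) in S662D mice, beside 2.64%. The lists were chosen with earlier results of these data known, and they were not tested as sets. Of 16 tested genes of the leptin arm, 1 rose in controls, Ptpn11 (0.14 on the log2 scale, adjusted p = 0.0194 in edgeR), a phosphatase recruited by the leptin receptor, and 1 fell, Il6st (−0.17, adjusted p = 0.00548), the shared receptor chain of interleukin 6 cytokines. In S662D mice Ptpn11 rose by 0.21 (adjusted p = 0.0140 in edgeR) and Il6st had −0.12 (adjusted p = 0.296). Other feedback inhibitors of cytokine receptors did not pass in controls, with −0.20 for Socs2 (adjusted p = 0.0687), −0.25 for Cish (adjusted p = 0.234) and 0.02 for Socs1. The median of the list was −0.03 in both genotypes, against 0.00 over all genes.

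Of 14 tested STAT3 target genes, 2 rose in controls and 0 fell: Cebpd, a transcription factor of the C/EBP family (0.96, adjusted p = 0.000708 in edgeR), and the kinase Pim3 (0.22, adjusted p = 0.00380). The same 2 were called in S662D mice, at 1.75 and 0.55. Socs3, also a STAT3 target, had the opposite sign to these 2. The uncalled genes of the list had estimates of both signs. Its median was 0.02 in controls and 0.10 in S662D mice, against 0.00 over all genes. Of the 17 tested ligands, receptors and adaptors of insulin and IGF, 0 were called in controls, and the estimates farthest from 0 were those of Enpp1 (−0.30, adjusted p = 0.0975 in edgeR) and Insrr (−0.27, adjusted p = 0.753). In S662D mice 1 fell, Insrr (−1.45, adjusted p = 0.0153 in edgeR), an orphan receptor of the insulin receptor family with a mean of 0.809 CPM fed and 0.284 CPM fasted. Lep, Ins1 and Ins2, the hormone genes, were too low to be tested.

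Of 20 genes of the PI3K and AKT arm, 1 rose and 2 fell in controls. Trib1, a pseudokinase, rose by 0.50 (adjusted p = 2.68e-05 in edgeR), its relative Trib2 fell by 0.32 (adjusted p = 1.56e-06) and Pik3cd, a catalytic subunit of PI3K, fell by 0.13 (adjusted p = 0.0339). Trib1 and Trib2 were called in S662D mice too, at 0.70 and −0.36, together with the AKT phosphatase Phlpp2 at −0.20 (adjusted p = 0.0263 in edgeR). The other catalytic subunits of PI3K and the 3 Akt genes did not pass in either genotype.

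Of 16 tested FOXO family and target genes, 5 rose and 1 fell in controls. The 3 with the largest change were Txnip, an inhibitor of thioredoxin (1.19, adjusted p = 1.98e-09 in edgeR), Pdk4, a kinase that restrains the use of pyruvate (1.15, adjusted p = 1.22e-07), and the transcriptional regulator Cited2 (0.39, adjusted p = 8.53e-06). Sesn1 (0.35), Bcl6 (0.35) and Fbxo32 (−0.31), named after their values had been seen, completed the calls. In S662D mice, 4 rose and 0 fell: Txnip (1.23), Pdk4 (1.11), Bcl6 (0.37) and Cited2 (0.35). The relatives Foxo4 (−0.04) and Foxo6 (−0.19) did not pass in controls, and the list's median was 0.01 against 0.00 over all genes. Several of these targets are also known to respond to glucocorticoids. All 17 genes of a glucocorticoid-induced list rose in both genotypes, with summed levels of 625 to 842 CPM in fed and 1100.4 to 1762 CPM in fasted controls, and their part in these changes was not tested.

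Of 11 tested genes of the ghrelin arm, 1 rose in controls and in S662D mice, Ucp2, a mitochondrial carrier known from ghrelin action on arcuate neurons (0.47 in both, adjusted p = 2.18e-07 and 0.000127 in edgeR). Ghrl, the ghrelin gene, had 0.33 in controls (adjusted p = 0.330). Camkk2, Prkaa1 and Prkaa2, of the AMP kinase pathway, did not pass.

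**Figure D5:**
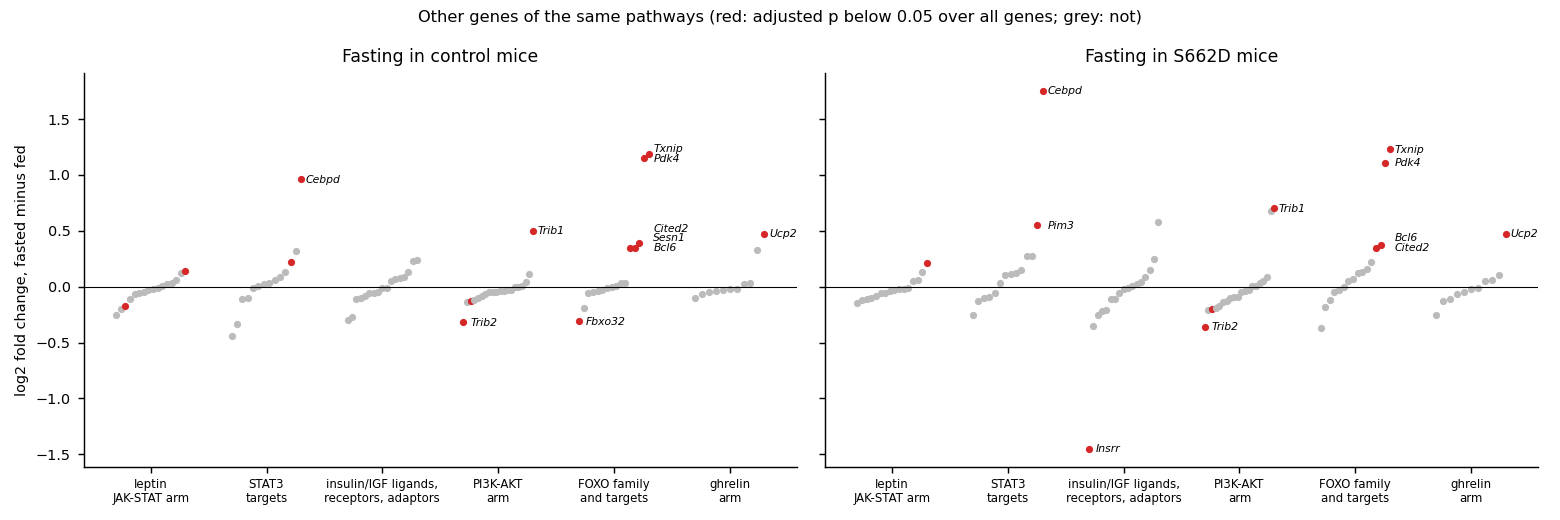
log2 fold change on fasting (vertical axis) of the other genes of each pathway in control and S662D mice, sorted within each list, red where the adjusted p over all genes was below 0.05 and named where it was beyond 0.3 in size. Txnip and Pdk4 stand above 1 in both panels, and most genes lie near 0.

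Between genotypes, 4 of the 94 other pathway genes (4.26%) were called in fed S662D against control mice, 5 (5.32%) in fasted ones and 10 (10.6%) in the labelled knockout against fasted S662D mice, beside 4.69%, 5.57% and 7.34% of all genes. In fed S662D mice, Irs1 (0.43, adjusted p = 0.00716 in edgeR) and Igf2r (0.25) of the insulin and IGF list, Stat5b (0.13) and Pik3cd (0.17) were higher than in controls and 0 of the listed pathway genes were lower. In fasted S662D mice, genes called included Il6st (0.15), Camkk2 (0.14) and Pim3 (0.20), which were higher, and Hdac6 (−0.15), which was lower. Against fasted S662D mice, the libraries labelled Per2 knockout had less Socs1 (−0.73, adjusted p = 0.0155 in edgeR), Irs1 (−0.36), Phlpp1 (−0.24), Pik3cd (−0.22), Gsk3a (−0.22), Akt2 (−0.19), Camkk2 (−0.19), Stk11 (−0.19) and Sh2b1 (−0.18), and more Insrr (1.27). Of the PI3K and AKT arm that is 4 of 20 genes, all lower in the labelled knockout. In the same comparison 4 of the 8 endothelial markers were lower (Cldn5, Pecam1, Flt1 and Cdh5), with summed levels of 191 to 214 CPM against 202 to 273 CPM. Of the 12 hypothalamus markers 2 were called higher (Hcrt and Pmch) and 0 lower. Of the 7 tested arcuate neuron markers 1 was called higher (Npy) and 0 lower. In fed S662D mice Cldn5 and Flt1 were higher and Ly6c1, also endothelial, was lower. The part of these markers in the pathway values was not tested. The number sets described above run through each of these comparisons.

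For each of the 4 genes called in a comparison, the genes with the most similar course over the 5 groups were found among those of at least 1 CPM called in the same direction. Nearness was the root mean square difference of the centred group means on the log2 scale. Nearest to Socs3 were Gbp2 (0.013), Hspb1 (0.029) and Sall1 (0.036), among 295 candidates. Nearest to Ptpn1 were Capn2 (0.008), Slc27a1 (0.017) and Dock9 (0.017), and nearest to Foxo1 were Tns3 (0.030), Ogdhl (0.030) and Cited2 (0.034), among 373 candidates each. For Foxo3 in fed S662D mice they were Adgrg1 (0.007), Ldlrad4 (0.014) and Slc2a13 (0.017), among 557.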

How the data were processed

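PolyA RNA from the hypothalamus of 35 mice was measured by paired-end sequencing, with groups taken from the labels. Each library has 1 file of unnormalized counts per gene name, which the authors deposited. They were made with featureCounts 2.0.1 on GENCODE vM12 (mm10), with multi-mapping reads counted and no strand option, per the file headers, and STAR 2.7.10b is named in the submitters' processing notes. Counting every alignment and both strands can add reads to genes with copies or antisense partners.

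Genes kept by filterByExpr (minimum count 10) were fitted with edgeR 4.0.16 in R 4.3.3: TMM scaling, 1 mean per group over all 35 libraries, glmQLFit with robust estimation and glmQLFTest, Benjamini-Hochberg adjustment over all 18063 genes, called below 0.05. The common biological coefficient of variation was 0.0900. Standard errors were derived from the F statistic. The labels do not say whether mice shared litters, cages or preparation days, so p-values measure the spread between these libraries. No libraries were duplicates (the closest pair of a group had a chi-square of 2.44 per degree of freedom).

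The 10 genes and the gene lists were chosen with earlier results of these data known. All 10 were named in all 7 comparisons, as was every called gene of a pathway list with 5 or fewer calls in a comparison (otherwise the 3 with the largest change), the 3 genes nearest in pattern to each called gene, and Per2. Some listed genes that this rule names are not reported here. Alternatives were DESeq2 1.42.0, other scalings, no filter, only the groups compared, a replicate block and each number set. Libraries high in choroid plexus markers were also left out, as was each library in turn.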

Additional observations from a re-analysis of the deposited data

Results flagged for a closer look

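A single library stood apart in 2 of the 50 combinations of gene and group examined, where chance flags about 1 in 20. Ghsr in fed S662D replicate 4 had 6.27 CPM, and the nearest other library of the group had 4.62 CPM. Socs3 in replicate 1 labelled Per2 knockout had 1.61 CPM, and the nearest had 1.90 CPM.

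The response to fasting differed between control replicates 6 to 10 and 1 to 5 for 3 of the 10 genes: by −0.40 on the log2 scale for Irs2, −0.37 for Foxo1 and −0.28 for Insr, each with a smaller estimate in replicates 6 to 10. The labels do not say what separates the sets.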

How the results depend on the processing

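The number of the 10 genes called for fasting in controls (3) became 0 with controls 6 to 10 alone and 1 without the libraries high in choroid plexus markers, and was 2 to 3 without single libraries. For fed S662D against control mice (1 gene) it was 0 with controls 6 to 10, with S662D libraries without the digit, with the digit as a term and without the libraries high in choroid plexus markers, 2 with only the groups compared and with DESeq2, 3 with controls 1 to 5, 4 with the digit libraries, and 0 to 2 without single libraries. For fasted S662D against control mice (0 genes) it was 3 with the digit libraries, 1 with DESeq2 and 0 to 2 without single libraries, and for labelled knockout against S662D it was 3 with the digit libraries. In the fit with a replicate block it was 3 for fed S662D against control mice, and Socs3 on fasting in controls had an adjusted p of 0.107 in edgeR. The deviations of libraries with the same number had correlations of −0.19 to 0.24. The labels state no pairing, and such correlations cannot decide whether the numbers pair mice. The tests of the number sets gave 1 to 4 (controls) and 3 to 5 (digit) genes without single libraries. Socs3 was called in 21 of 30 alternatives, Ptpn1 and Foxo1 in 28 of 30 each, and Foxo3 in fed S662D mice in 20 of 27, all with 1 sign. The causes were not tested. At 23 to 140 counts per library, counting error adds to the spread of Socs3 and Lepr. Over all genes, the number called varied more. For fasting in controls (701) it was 1315 with controls 1 to 5, 304 with controls 6 to 10 and 425 without the libraries high in choroid plexus markers. For fasting in S662D mice (476) it was 7 with the libraries without the digit, 223 without the libraries high in choroid plexus markers, 279 with only the groups compared and 311 to 585 without single libraries. For the difference in response (0) it was 486 with controls 1 to 5, 9 with the digit libraries and 615 with the replicate block. For fed S662D against control mice (847) it ran from 16 (libraries without the digit) to 3106 (with it), with 23 for the digit as a term, 33 and 1741 with controls 6 to 10 and 1 to 5, 243 without the libraries high in choroid plexus markers, 2333 with the replicate block, 1423 with DESeq2 and 66 to 1667 without single libraries. For fasted mice (1007) it was 21, 3148, 20, 48 and 1680 under the first 5 of these settings in that order, 291 with only the groups compared and 154 to 1802 without single libraries. For the labelled knockout it was 1 to 99 against controls (5) and 26 to 2986 against S662D mice (1325), and for the control sets (2562) and the digit (3027) it was 248 and 1406 without the libraries high in choroid plexus markers.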
